A study of Rattus norvegicus with 48 samples.

Results

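The branched-chain amino acid group consists of 8 genes whose products break down leucine, isoleucine and valine in mitochondria: Bcat2, Bckdha, Bckdhb, Bckdk, Acad8, Acadsb, Auh and Aldh6a1. The members were chosen by symbol from a published gene table that pairs symbols with Ensembl identifiers, and all 8 were among the 13050 features tested out of 32624 listed. RNA was sequenced from cerebral endothelial cells (CECs), the cells that form the wall of brain capillaries and the blood-brain barrier. They were sorted with magnetic beads from pooled cerebral cortices of adult male Wistar-Han rats, by removing CD11b-positive cells and then keeping CD31-positive cells. Food was freely available to the AL group (ad libitum) and was withdrawn for 1 day (F1), 2 days (F2) or 3 days (F3) from the others, and every rat could drink freely. Each group had 3 samples from independent experiments, named i, j and k, and each sample had 4 technical replicates whose read counts were summed. The age of the rats is not given, and no transgene or drug treatment was compared between these groups. Before dissection the rats were anesthetized with diazepam and ketamine and perfused with a buffer that held heparin. Because cortices were pooled, a sample gives no value for a single rat.

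Branched-chain amino acids are first transaminated to keto acids by BCAT2, the mitochondrial aminotransferase. The keto acids are then decarboxylated by the branched-chain keto acid dehydrogenase (BCKDH), the committed step, whose E1 component is built from the alpha and beta subunits encoded by Bckdha and Bckdhb. BCKDK is the kinase that phosphorylates the alpha subunit and so inhibits the complex. After this step the 3 amino acids follow separate routes: ACAD8 acts on the valine route, ACADSB on the isoleucine route, AUH is the hydratase of the leucine route and ALDH6A1 is the dehydrogenase near the end of the valine route. The end products are acetyl-CoA, acetoacetate and propionyl-CoA. In the brain, endothelial cells are also where these amino acids enter from the blood, through the carrier LAT1. The comparisons addressed whether the transcripts of this pathway differed in CECs between fed rats and rats fasted for each number of days.

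The samples held from 20718644 to 25960874 assigned reads, and the 4 technical replicates of each sample differed about as much as counting noise, the ratio of chi-square to its degrees of freedom being 1.00 to 1.02. Values are given as normalized counts, which are reads divided by the library size scaled by the TMM method and multiplied by the mean of those sizes. Endothelial markers were abundant in all 12 samples. Pecam1, which encodes CD31, ranged from 31655 to 38792 normalized counts and Abcb1a, the P-glycoprotein gene, from 67163 to 82601. The summed level of the 4 endothelial markers tested of 7 listed was 388654 to 438725 in AL, 512143 to 527548 in F1, 492126 to 535859 in F2 and 531002 to 553905 in F3, and most of each sum was Slc2a1, the glucose transporter of the barrier (257320 to 309123 in AL). Slc2a1 was called higher in F1 and F3, with all fasted samples above AL. Pecam1, Abcb1a and Abcg2 were not called in F1, F2, F3 or the pooled comparison, and their pooled fasted samples overlapped AL. By day, Pecam1 in F1 (35876 to 38792) lay above AL (31655 to 35586) without overlap. Abcg2 in F2 (24113 to 32371) likewise lay above AL (18969 to 23659). The 6 microglial markers together stayed between 56.7 and 133.6. By contrast, 3 of 6 markers of pericytes and smooth muscle summed to between 1689 and 4744, most of it Abcc9 (1254 to 3980). For astrocytes, 2 of 5 markers summed to between 1536 and 2279. Nearly all of that sum was Aldoc (1530 to 2277), and the other marker, Aldh1a1, had only 2.03 to 10.0. Only genes with at least 1 read in each sample were tested, so that no tested marker could be at 0. No neuronal or oligodendrocyte marker had an identifier here. Fewer transcripts per cell and fewer cells of a type cannot be told apart in such bulk samples.

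Of the 8 genes, only Auh passed the threshold in any comparison. Differences were tested with edgeR's quasi-likelihood test in 1 model of the 12 samples, and a gene was called at a Benjamini-Hochberg adjusted p of at most 0.05 over all genes tested. In F1 against AL 0 of the 8 genes were called, where 6.56% of all genes were. In F2 against AL 0 of 8 were called, where 0.858% of all genes were. In F3 against AL 0 of 8 were called, where 12% of all genes were. The 9 fasted samples against the 3 AL samples also gave 0 of 8, beside 8.41% of all genes. At an unadjusted p under 0.05, edgeR gave 2 members in F1, 1 in F2, 3 in F3 and 4 in the fasted samples pooled. These unadjusted shares were 25% of members in F1 beside 20.6% of all genes, 12.5% in F2 beside 12.8%, 37.5% in F3 beside 26.0%, and 50% in the pooled comparison beside 22.5%. DESeq2, run as another test, called 1 member in F1 (Bckdhb), 1 in F2 (Auh), 0 in F3 and 1 in the pooled comparison (Bckdhb). Of all 13050 genes, DESeq2 called more than edgeR, namely 1241 in F1, 359 in F2, 1879 in F3 and 1458 in the pooled comparison.

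Between fasting days, F2 against F1 gave 0 of 8 members beside 1.43% of all genes, with 1 member at an unadjusted p under 0.05 (12.5%, beside 17.3% of all genes). DESeq2 called 0 members there, beside 616 genes. F3 against F2 gave 1 of 8, which was Auh, beside 5.94% of all genes. For F3 against F1 edgeR called 0 members and 0% of all genes (579 genes at an unadjusted p under 0.05), and DESeq2 called 24 genes and 0 members. A joint test of the 4 groups called 1 member, again Auh, beside 10.1% of all genes. The median log2 fold change over the 8 members was 0.04 in F1, 0.08 in F2 and -0.05 in F3, and over all genes tested it was -0.00433, -0.00852 and -0.00528.

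**Figure D1:**
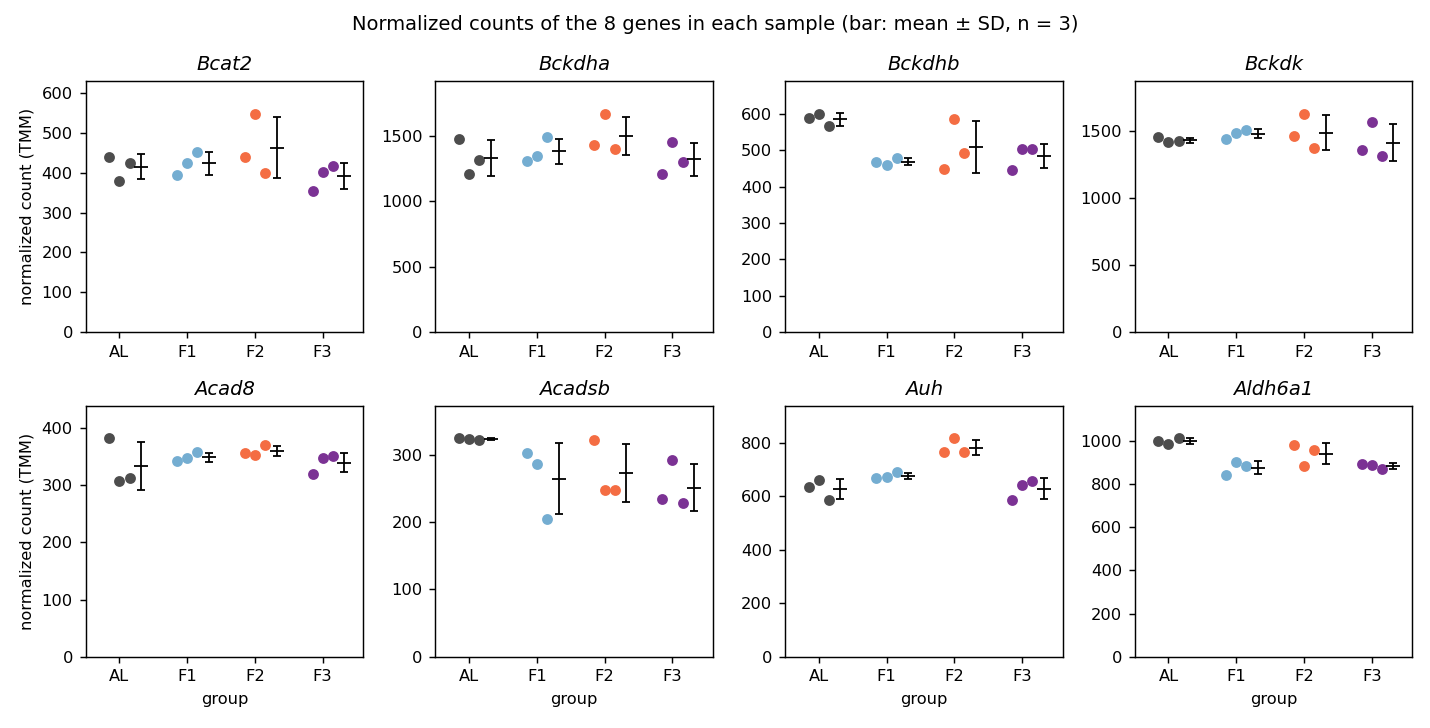
Normalized counts (y axis, from 0) of the 8 genes in the 3 samples of each group (x axis), ordered along the pathway, with samples i, j and k as points from left to right and the mean ± SD as a bar. Auh is highest in the 3 F2 samples, from 765 to 816, and Aldh6a1 in the 3 AL samples, from 988 to 1012. Bckdhb has its highest count in AL, where it lies between 566 and 599.9, and F2 sample j, at 586, falls within that range.

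Bcat2 (ENSRNOG00000020956), which encodes the aminotransferase of the first step, had similar counts in every group. Its normalized counts in samples i, j and k were 439.8, 379 and 426 in AL, 393, 425 and 452 in F1, 440.0, 548 and 400.0 in F2, and 355, 401 and 417 in F3. All groups overlapped, and F2 sample j stood above the other 11 samples. The log2 fold change against AL was 0.03 ± 0.12 (SE) in F1, 0.16 ± 0.12 in F2 and -0.09 ± 0.12 in F3, with adjusted p-values of 0.922, 0.625 and 0.709. The 95% confidence intervals ran from -0.23 to 0.28, from -0.10 to 0.41 and from -0.34 to 0.17, which as folds together cover 0.789 to 1.33. The cytosolic isoenzyme Bcat1 was close to the detection limit, with 1.99 to 18.4 normalized counts, and was not called in any comparison.

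Bckdha (ENSRNOG00000020607), the alpha subunit of the E1 component, also overlapped between all groups. Its counts were 1476, 1206 and 1317 in AL, 1307, 1347 and 1492 in F1, 1432, 1669 and 1401 in F2, and 1208, 1456 and 1299 in F3. Against AL the log2 fold change was 0.05 ± 0.10 in F1, 0.17 ± 0.10 in F2 and -0.01 ± 0.10 in F3, with adjusted p-values of 0.813, 0.503 and 0.954. The widest bound of these intervals was 0.38, in F2.

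Bckdhb (ENSRNOG00000009928), the beta subunit, was the member with lower counts after fasting that came nearest to the threshold. In AL its counts were 589, 599.9 and 566 (585 ± 17.5, SD, n = 3). In F1 they were 466, 459 and 478 (468 ± 9.3), in F2 447, 586 and 493 (509 ± 70.5), and in F3 445, 504 and 502 (484 ± 33.4). The F1 and F3 samples all lay below the AL samples, whereas F2 sample j lay inside the AL range. The log2 fold change was -0.32 ± 0.10 in F1 (adjusted p = 0.0663), -0.20 ± 0.10 in F2 (adjusted p = 0.407) and -0.27 ± 0.10 in F3 (adjusted p = 0.0867). Over the 9 fasted samples it was -0.27 ± 0.08 with a 95% confidence interval from -0.43 to -0.10, an unadjusted p of 0.00437 and an adjusted p of 0.0513 by the edgeR test. Of the 9 fasted samples, 8 lay below every AL sample. This value sits at the threshold: without F2 sample j the adjusted p was 0.00521, and with DESeq2 it was 0.0290. The range of its adjusted p over the alternatives that kept all samples was 0.0290 to 0.0778, and over those that left out 1 sample it was 0.00521 to 0.165.

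Bckdk (ENSRNOG00000019485), the inhibitory kinase, had the smallest coefficient of variation of the 8 genes over the 12 samples (6.06%), with counts of 1451, 1416 and 1422 in AL, 1442, 1485 and 1508 in F1, 1462, 1628 and 1371 in F2, and 1358, 1567 and 1315 in F3. The groups overlapped throughout. Fold changes on the log2 scale were 0.05 ± 0.08 in F1, 0.06 ± 0.08 in F2 and -0.02 ± 0.08 in F3, with adjusted p-values of 0.789, 0.815 and 0.924, and over all fasted samples its interval ran from -0.11 to 0.17.

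Because both E1 subunits and the kinase were counted in the same libraries, their ratios need no normalization between samples. The ratio of Bckdha to Bckdhb raw counts was 2.51, 2.01 and 2.33 in AL. It was 2.80, 2.93 and 3.12 in F1, 3.20, 2.85 and 2.84 in F2, and 2.71, 2.89 and 2.58 in F3. All 9 fasted samples lay above the 3 AL samples, F2 sample j included. The mean ratio on the log2 scale was 0.34 higher in the fasted samples, which is 1.27-fold (exact permutation test, two-sided, 9 against 3 samples, p = 0.00909, the smallest these 220 groupings can give; 0.0182 after Benjamini-Hochberg adjustment over the 2 ratios tested). Without any 1 AL sample the adjusted p was 0.0727, from an unadjusted 0.0364 that is the smallest 9 against 2 samples allow in this exact permutation test, with log2 differences of 0.25 to 0.41. For single days the differences were 0.38 in F1, 0.38 in F2 and 0.26 in F3, each with an exact permutation p of 0.1, the smallest that 3 against 3 samples allow. The ratio is one of read counts and carries the lengths of both transcripts, so that its absolute value is not a ratio of molecules. In the genome annotation of RefSeq (GRCr8), Bckdha overlaps another gene, Exosc5, and how the counting treated reads from the overlap is not given in the sources used here.

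The ratio of Bckdk to Bckdha, the kinase to the subunit it phosphorylates, was 0.983, 1.17 and 1.08 in AL and lay between 0.975 and 1.12 in the 9 fasted samples. The groups overlapped and the mean log2 ratio differed by -0.04 (exact permutation test, two-sided, p = 0.464, adjusted 0.464).

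**Figure D2:**
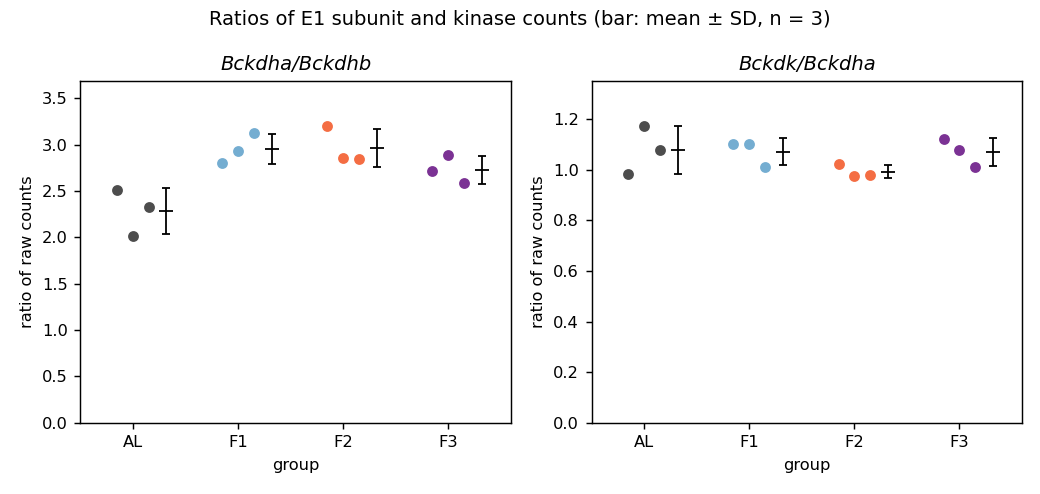
Ratio of raw counts (y axis, from 0) in each sample by group (x axis), for Bckdha over Bckdhb on the left and Bckdk over Bckdha on the right, with samples i, j and k from left to right and the mean ± SD as a bar. On the left the 9 fasted samples, from 2.58 to 3.20, sit above the 3 AL samples, from 2.01 to 2.51, and on the right the groups overlap.

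Acad8 (ENSRNOG00000048164), the isobutyryl-CoA dehydrogenase of the valine route, had counts of 382, 308 and 312 in AL, 342, 347 and 358 in F1, 356, 354 and 369.9 in F2, and 320.2, 347 and 352 in F3. AL sample i was the highest of the 12 samples and the other 2 AL samples the lowest, so that the AL group spanned the fasted groups. On the log2 scale the differences from AL were 0.06 ± 0.10, 0.11 ± 0.10 and 0.02 ± 0.10 in F1, F2 and F3, with adjusted p-values of 0.771, 0.698 and 0.919.

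Acadsb (ENSRNOG00000020624), the short and branched-chain acyl-CoA dehydrogenase of the isoleucine route, had close values in fed rats and spread widely after fasting. Its counts were 324, 323 and 321 in AL (SD 1.43), 303, 286 and 204 in F1 (SD 52.9), 322, 247 and 248 in F2 (SD 43.1), and 234, 291 and 227 in F3 (SD 35.2). F1 and F3 did not overlap AL, and F2 sample i lay within the AL range. The log2 fold change was -0.29 ± 0.15 in F1, -0.25 ± 0.15 in F2 and -0.36 ± 0.15 in F3, with adjusted p-values of 0.317, 0.539 and 0.153. Over the 9 fasted samples it was -0.30 with a 95% confidence interval from -0.57 to -0.03 and an adjusted p of 0.168, so that the difference did not pass the threshold.

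Auh (ENSRNOG00000011684) encodes the methylglutaconyl-CoA hydratase of leucine breakdown, a protein that also binds AU-rich RNA. Its counts were 633, 661 and 586 in AL (627 ± 38.2, SD, n = 3), 669.7, 671 and 689.7 in F1 (677 ± 11.1), 766, 816 and 765 in F2 (782 ± 29.5), and 587, 642 and 658 in F3 (629 ± 37.7). The 3 F2 samples were above all 9 other samples, and the F3 samples were back within the AL range. Between day 2 and day 3 Auh fell by 0.31 on the log2 scale (SE 0.08, 95% confidence interval of the change from -0.48 to -0.15, adjusted p = 0.0282), and it was the single member that passed the joint test (adjusted p = 0.0315). F2 against AL gave a log2 fold change of 0.32 ± 0.08 with an adjusted p of 0.0691, and F2 against F1 one of 0.21 ± 0.08 with an adjusted p of 0.174. F3 against AL gave 0.01 ± 0.08 with an adjusted p of 0.977.

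The fall of Auh between day 2 and day 3 kept its direction under all 22 alternatives. Its adjusted p was 0.00529 with DESeq2, 0.104 when only the 6 samples compared were fitted, 0.0519 without F2 sample j, and when a sample of F3 was left out it was 0.139 (i), 0.0636 (j) or 0.0558 (k). Its joint test was past the threshold with all samples and no longer so without AL sample i or k, F1 sample j, any 1 F2 sample, or F3 sample i or j. The summed pericyte and smooth muscle markers (3 of 6 tested) were 1908 to 4372 in AL and 2066 to 2365 in F1. They were 2451 to 4744 in F2 and 1689 to 4443 in F3. The F2 sums of these markers thus lay above F1, as Auh did, but overlapped AL and F3. Their part in the result was not tested. Auh overlaps a long noncoding RNA gene, LOC134482816, in the same annotation.

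Among 1146 genes with a symbol and a mean of at least 100 normalized counts, those whose log2 CPM followed Auh most closely over the 12 samples were Atg2a (Pearson's r = 0.90), Bag6 (r = 0.87) and C2cd2l (r = 0.86). For Bckdhb they were Apoo (r = 0.88), Bcar1 (r = 0.87) and Casp1 (r = 0.86). The points of these correlations share libraries and groups, they are the highest of many, and symbols were at hand only for the early part of the alphabet, so that they describe likeness among these genes and no more.

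Aldh6a1 (ENSRNOG00000011419), the methylmalonate semialdehyde dehydrogenase of the valine route, was lower in every fasted sample than in every fed sample. Its counts were 1001, 988 and 1012 in AL (SD 12.05), 841, 904 and 886 in F1 (SD 32.2), 982, 886 and 956 in F2 (SD 49.99), and 892, 890.1 and 869.8 in F3 (SD 12.3). F2 sample i, at 982, came within a few counts of the lowest AL sample. Aldh6a1 overlaps another gene, Bbof1, in the RefSeq annotation, and how reads from the overlap were counted is not given. The log2 fold change was -0.19 ± 0.07 in F1, -0.09 ± 0.07 in F2 and -0.18 ± 0.07 in F3, with adjusted p-values of 0.109, 0.625 and 0.0997, and over the 9 fasted samples -0.15 ± 0.05 with an adjusted p of 0.101. It was called in F1 and F3 without F2 sample j (adjusted p = 0.0423 and 0.0389) and with scaling by total counts (0.0369 and 0.0418).

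The groups did not overlap for 4 of 8 members in F1 against AL (28.7% of all genes), for 2 in F2 (15.5%), for 3 in F3 (35.6%) and for 1, Aldh6a1, when the 9 fasted samples were set against AL (5.95%). In F3 against F2 they did not overlap for 2 members, Auh and Acad8 (26.8% of all genes).

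**Figure D3:**
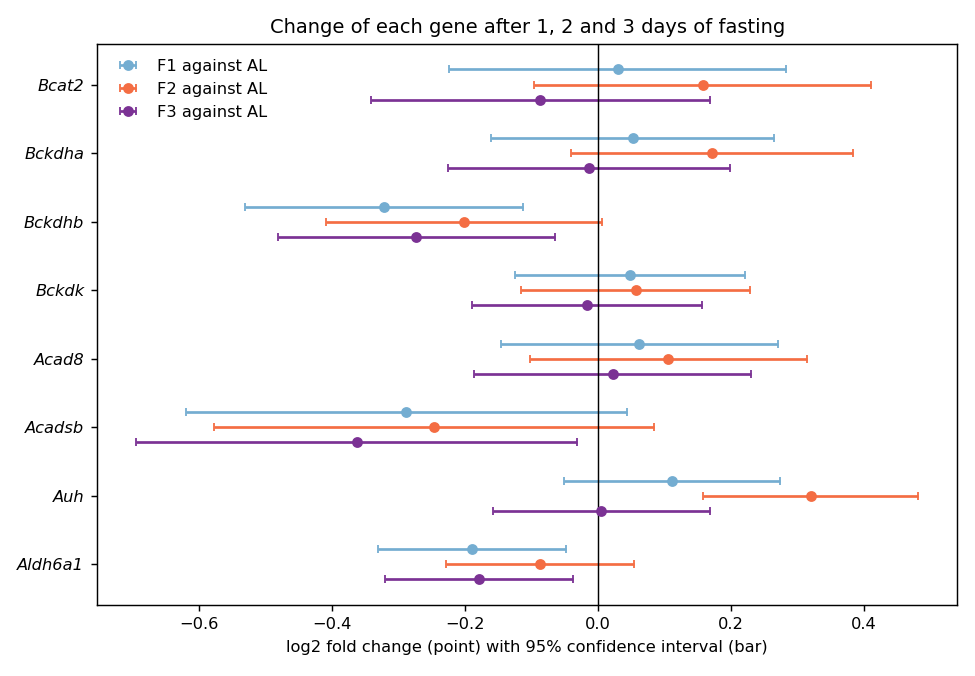
Log2 fold change against AL (x axis, points) with its 95% confidence interval (bars) for the 8 genes in pathway order (y axis), in F1, F2 and F3. The F1 and F3 intervals of Bckdhb and Aldh6a1 and the F2 interval of Auh leave out 0, as does the F3 interval of Acadsb, while those of Bcat2, Bckdha, Bckdk and Acad8 cover 0 on all 3 days. None of these differences passed the adjusted threshold.

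The members did not vary as 1 block. Over the 12 samples, log2 CPM of Bcat2 correlated with that of Bckdha (r = 0.87), and Bckdha with Bckdk (r = 0.76) and Acad8 (r = 0.68). The subunit partners Bckdha and Bckdhb had r = 0.21. Bckdhb and Aldh6a1, both with their highest counts in fed rats, had r = 0.47, and Acadsb and Aldh6a1 r = 0.59. F2 sample j held the highest count of the 12 samples for 4 of the 8 genes, namely Bcat2, Bckdha, Bckdk and Auh. These points share libraries and groups, and no test was made of them.

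The upstream sequences of the 3 members with an unadjusted p under 0.05 in the edgeR joint test are shown. They were 37.5% of members, beside 24.8% of all genes. Bckdhb and Aldh6a1 had their highest counts in fed rats and Auh in F2. RefSeq (GRCr8) gave sequence for 7 of the 8 members, and the 250 bases before the annotated start are printed from 5′ to 3′ on the strand of the gene. Capitals mark CCAAT boxes and GC boxes, the latter searched as GGGCGG, each on both strands and with no overlap between them in these windows.
Bckdhb (chr8:93725027-93725276, plus strand): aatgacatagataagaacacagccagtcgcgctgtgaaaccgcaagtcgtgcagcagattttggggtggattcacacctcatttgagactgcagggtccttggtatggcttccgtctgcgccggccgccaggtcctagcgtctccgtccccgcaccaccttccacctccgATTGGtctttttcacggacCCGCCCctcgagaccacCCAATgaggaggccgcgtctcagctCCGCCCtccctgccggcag
Aldh6a1 (chr6:109829726-109829975, minus strand): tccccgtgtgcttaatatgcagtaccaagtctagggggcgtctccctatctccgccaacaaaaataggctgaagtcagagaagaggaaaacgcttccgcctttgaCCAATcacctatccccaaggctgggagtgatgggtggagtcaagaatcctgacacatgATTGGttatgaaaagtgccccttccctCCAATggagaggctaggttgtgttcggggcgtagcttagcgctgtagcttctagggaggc
Auh (chr17:12481171-12481420, plus strand): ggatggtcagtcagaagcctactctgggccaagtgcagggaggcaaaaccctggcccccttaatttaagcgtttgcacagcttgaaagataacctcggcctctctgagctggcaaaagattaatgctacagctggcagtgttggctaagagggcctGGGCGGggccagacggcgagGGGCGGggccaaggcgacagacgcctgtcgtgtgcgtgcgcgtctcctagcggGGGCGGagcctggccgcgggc
CCAAT occurred 2 times upstream of Bckdhb, 3 times upstream of Aldh6a1 and 0 times upstream of Auh, and 34.0% of all 33469 upstream windows of this length held at least 1. GGGCGG occurred 2, 0 and 3 times, against 30.5% of windows. In the windows of Bcat2, Bckdk, Acad8 and Acadsb, CCAAT occurred 0 times and GGGCGG 1, 1, 2 and 5 times. Bckdhb, Aldh6a1 and Acadsb, all with a lower mean count after fasting, were not called in any comparison of the main edgeR test. A link between these letters and the counts was not tested. The letters AGGTCA, a pattern of nuclear receptor sites, and the E-box letters CACGTG were searched on both strands in the same way and occurred in none of the 7 windows, where 14.1% and 5.59% of all windows held them. These are letter matches in reference sequence of another build than the Rnor_6.0 used for the counts, and the RNA data do not measure use of any of them.

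Of 37 further genes listed for the pathway, 9 had an identifier and were tested. None of the 9 was called lower in any comparison, and 2 were called higher in F1, in F3 and in the fasted samples pooled, namely Acadm and Aldh3a2. Acadm, the medium-chain acyl-CoA dehydrogenase, whose main role is in fatty acid oxidation, was 6494, 6503 and 7047 in AL from lowest to highest and 8275 to 8872 in F1, 7040 to 8083 in F2 and 8188 to 8780 in F3. It rose by 0.36 ± 0.08 on the log2 scale in F1 (adjusted p = 0.0120) and by 0.34 ± 0.08 in F3 (adjusted p = 0.0101), and F2 gave 0.21 ± 0.08 (adjusted p = 0.252). Aldh3a2, a fatty aldehyde dehydrogenase, rose by 0.30 ± 0.07 in F1 (adjusted p = 0.0244) and 0.36 ± 0.07 in F3 (adjusted p = 0.00560). The F1 call of Acadm was lost without AL sample i or k or F1 sample j, its F3 call without F3 sample i, and the F1 call of Aldh3a2 without any 1 AL sample or F1 sample i or j, with adjusted p-values of at most 0.108. The pooled call of Aldh3a2 was lost without AL sample i (adjusted p = 0.0728). Acat1, the mitochondrial thiolase of isoleucine and ketone metabolism, gave -0.10 ± 0.08 over the fasted samples (adjusted p = 0.520).

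Acad8 and Acadsb belong to the same enzyme family as the acyl-CoA dehydrogenases of fatty acids, and the 2 sets were therefore set side by side. Of 7 other family members listed for comparison, which are not the whole family, all were tested. In the fasted samples pooled 4 were called higher: Acad9 (0.59 ± 0.10, adjusted p = 0.00272), Acads (0.37 ± 0.10, adjusted p = 0.0292), Acadm (0.30 ± 0.06, adjusted p = 0.00860) and Acadl (0.24 ± 0.07, adjusted p = 0.0443). Acad11 was called lower (-0.35 ± 0.06, adjusted p = 0.00445), and Acadvl (0.11 ± 0.08) and Acad10 (-0.24 ± 0.18) were not called. Acad9 and Acad11 stayed past the threshold in all 21 alternatives of the pooled comparison, Acadm was lost without AL sample i or k (adjusted p up to 0.0567), Acads was lost in 7 (up to 0.125) and Acadl in 11 (up to 0.211), both of them without any 1 AL sample and with total counts. Neither Acad8 nor Acadsb was called, with 0.06 ± 0.08 for Acad8 and -0.30 ± 0.12 for Acadsb. Ivd, also listed for the pathway, had no identifier here and was not tested.

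Acadm was also set over Acad8 and over Acadsb within samples. These ratios were chosen after the fold changes had been seen and restate them without normalization, so that they are given with no test. The ratio of Acadm to Acadsb raw counts was 20.1, 21.8 and 20.3 in AL and lay between 25.0 and 40.6 in the 9 fasted samples, with no overlap. Its mean log2 value was 0.62 higher, 1.53-fold. The ratio of Acadm to Acad8 was 17.0, 22.9 and 20.8 in AL and 19.0 to 27.4 in the fasted samples, with overlap, and its mean log2 value was 0.23 higher.

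**Figure D4:**
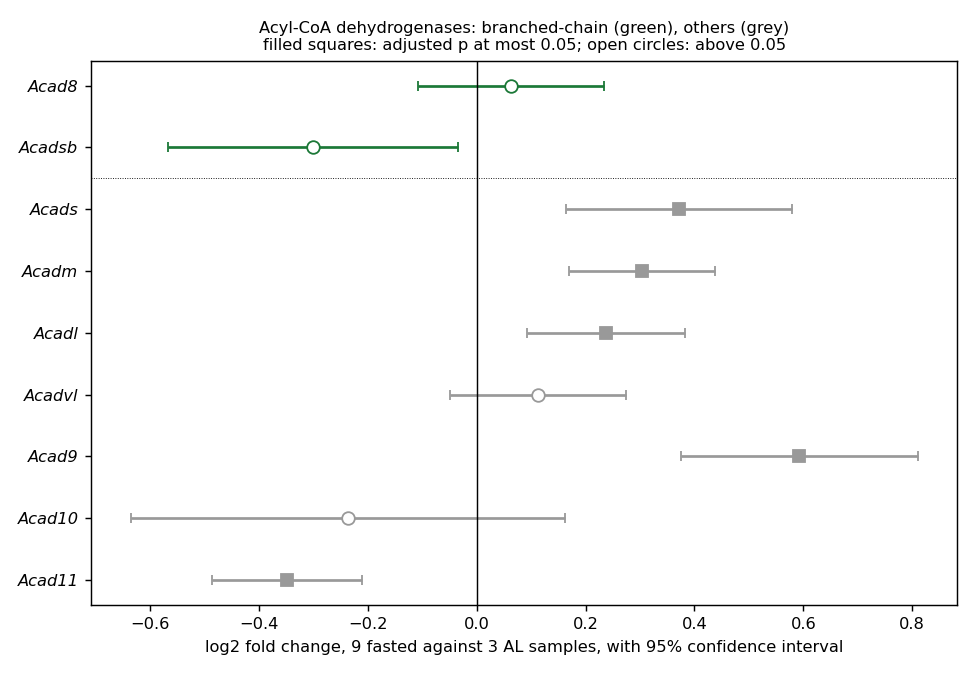
Log2 fold change of 9 fasted against 3 AL samples (x axis) with its 95% confidence interval for Acad8 and Acadsb, the branched-chain dehydrogenases among the members (green), and 7 listed others of the family (grey), with filled squares for an adjusted p of at most 0.05 and open circles otherwise. Acads, Acadm, Acadl and Acad9 lie to the right of 0 with intervals that leave it out, Acad11 to the left, and the points of Acad8 and Acadsb are open.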

How the data were processed

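The authors converted base calls with bcl2fastq 2.18.0.12, aligned the 75-base reads with STAR to Rnor_6.0, removed reads with several matches and counted reads on exons with HTSeq 0.5.3. The deposited values are these raw counts per Ensembl gene, without normalization. The library kit keeps strand, and the strand setting of the counting is not given in the sources used here. In RefSeq (GRCr8), 4 members overlap other genes: Bcat2 (Hsd17b14 and LOC102556190), Bckdha (Exosc5), Auh (LOC134482816) and Aldh6a1 (Bbof1). Counts of the 4 technical replicates were summed, giving 12 samples from 48 files with 20718644 to 25960874 assigned reads. For F1 sample k, the fourth technical file (d) has a title that gives F1 and other fields that give 2 days. It was kept in F1, and an alternative leaves it out.

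Genes with at least 1 read in each sample were tested with edgeR 4.0.16 in R 4.3.3 (TMM, robust quasi-likelihood fit, 4 group means) for 8 comparisons, with Benjamini-Hochberg adjustment over all genes tested and a threshold of 0.05. Confidence intervals at 95% use the model's standard errors. Log2 CPM used a prior count of 2. Ratios of raw counts were compared by exact permutation tests in scipy 1.17.1, except for those with Acadm. Symbols came from supplementary tables of the study, the longer of which was at hand only for the start of the alphabet, so that 2043 of 13050 features tested had one; the authors' columns of fold changes and p-values there were not used. The named genes are all members, further pathway genes that were called, Bcat1, Acadm and Acat1, and for the 2 members with the smallest joint p the 3 genes most like each, clone-like symbols excluded. The members and lists were chosen with earlier results of these data known. Alternatives were DESeq2 1.42.0, its size factors, total counts, upper-quartile scaling, no filter, filterByExpr, fitting each comparison's own samples alone, a replicate block by letter, and leaving out each sample; a fit without robust shrinkage and the ratios with Acadm were added after seeing the data.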

Additional observations from a re-analysis of the deposited data

Results flagged for a closer look

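One result differed between days of fasting by a direct test. Auh changed by -0.31 (log2) from day 2 to day 3 (adjusted p = 0.0282 with edgeR), with the 3 F2 samples at 765 to 816 normalized counts and the 3 F3 samples at 587 to 658. Single samples were not tested as outliers.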

How the results depend on the processing

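Over the 22 alternatives, F2 against F1 and F3 against F1 kept a count of 0 members called. Scaling by total counts gave 2 members in F1 and 2 in the fasted samples pooled (Bckdhb and Aldh6a1) and 1 in F3 (Aldh6a1). Of all genes it called 968, 1298 and 1619 in these comparisons, with median log2 fold changes of -0.065, -0.052 and -0.052. DESeq2 gave 1 member each in F1, F2 and the pooled comparison. Fitting only the samples compared gave 1 in F1 and 1 in F3 (Bckdhb), beside 1044 and 2023 genes, and 0 in F3 against F2, beside 260. DESeq2's size factors, filterByExpr and leaving out the doubtful technical file d of F1 gave 1 (Bckdhb) in the pooled comparison, beside 1107, 1169 and 1108 genes. Leaving out 1 sample at a time gave 0 to 2 members in F1, 0 to 2 in F3, 0 to 1 in F3 against F2, 0 to 1 in the pooled comparison and 0 to 1 in the joint test, where the member without F2 sample j was Bckdhb in place of Auh. It gave log2 differences of 0.25 to 0.41 for the ratio of Bckdha to Bckdhb, with p-values adjusted over 2 ratios of 0.0242 without a fasted sample and 0.0727 without an AL sample, each from the smallest unadjusted p such a design allows, and -0.11 to 0.018 for that of Bckdk to Bckdha.

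Changes near 0 turned sign. With total counts the log2 fold change was -0.033 for Bcat2, -0.011 for Bckdha, -0.013 for Bckdk and -0.00045 for Acad8 in F1, -0.025 for Acad8 and -0.040 for Auh in F3, and -0.015 for Bcat2 and -0.019 for Bckdk in the pooled comparison. Without 1 sample it ranged in F1 from -0.039 to 0.080 (Bcat2), -0.023 to 0.13 (Bckdha) and -0.0017 to 0.17 (Acad8), in F2 from -0.014 to 0.11 (Bckdk), in F3 from -0.089 to 0.067 (Bckdha), -0.098 to 0.030 (Bckdk), -0.041 to 0.13 (Acad8) and -0.042 to 0.054 (Auh), and pooled from -0.034 to 0.079 (Bcat2) and -0.0039 to 0.15 (Bckdha). The cause was not tested.

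The sample letters were not taken as pairs in the main model. Of 18 same-letter pairs 3 correlated above 0.1 (range -0.02 to 0.14, median 0.029). The 36 other-letter pairs ranged from -0.19 to 0.20, with a median of -0.025. On average 9 of 12 samples correlated best with their own letter. The ratio tests took no account of the letters. With the letter as a replicate block, 1 member was called in the pooled comparison (Bckdhb, adjusted p = 0.0473), Auh stayed called in F3 against F2 (adjusted p = 0.0382), no other member's call changed, and the pooled call of Acadl was lost. The count of all genes called moved from 186 to 108 in F2 against F1 under the block and from 1097 to 1054 in the pooled comparison. Over the alternatives with all samples it ranged from 739 to 1241 in F1, 0 to 359 in F2 and 1359 to 2023 in F3, beside 856, 112 and 1572. Without 1 sample it ranged from 306 to 1451, 34 to 157 and 790 to 2366. In the pooled comparison it was 955 to 1458 with all samples and 499 to 1746 without 1 sample, beside 1097. For F3 against F2 these ranges were 260 to 1225 and 164 to 755, beside 775. For the joint test they were 1198 to 2090 and 738 to 1782, beside 1321. With total counts 375 of 968 calls in F1 were higher, beside 505 of 856. With 3 samples per group, a difference whose confidence interval covers 0 could not be told from 0. The intervals are for single genes and are not adjusted for the number of genes tested.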
